A study of Mus musculus with 24 samples.

Results

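The genes described here carry the growth hormone signal in the liver: the receptor (Ghr), the transcription factors it activates (Stat5a, Stat5b), the repressors Bcl6 and Cux2, the feedback inhibitors Socs2 and Cish, and the secreted products Igf1 and Igfals. They were chosen as a list of 9 gene symbols, found by gene identifier among the 18171 genes of the deposited table, and all 9 were found. Liver RNA was sequenced from C57BL/6 mice on the BGISEQ-500 platform, in 12 libraries of mice that overexpressed L2d13 and 12 libraries of wild-type (WT) mice. L2d13 is the form written L2 delta13 in the study's description, a name used elsewhere for lysyl oxidase like 2 (Loxl2) lacking exon 13, although the labels leave L2 unexplained. Sample names of both genotypes hold a digit 2 or 4 of unstated meaning, so that the groups are L2d13 set 2, WT set 2, L2d13 set 4 and WT set 4, with 6 libraries each. The promoter that drives the overexpression, the number of lines, and the age, sex and hour of collection of the mice are not given in the sources used here. Whether each library is a different animal is left unsaid by the labels, and the p-values therefore rest on the spread among libraries, part of which may be technical.

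Growth hormone binds its receptor on hepatocytes, and the receptor's kinase JAK2 phosphorylates STAT5A and STAT5B, which enter the nucleus and activate genes such as Igf1, Igfals, Socs2 and Cish. SOCS2 and CISH then act back on the receptor complex and damp the signal. BCL6 is a repressor that can occupy many of the DNA sites that STAT5 binds. In mouse liver the signal also sets much of the difference between the sexes: BCL6 is higher in males, and CUX2, which represses male-biased genes, is higher in females.

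Libraries that stood apart touch several of the results. The table gives FPKM (mapped fragments scaled to library size and transcript length), which sums to between 550260 and 722980 per library and carries no read total, so the depth is unknown. The FPKM worth of 1 fragment, relative to its typical size and taken from steps between low values, was 0.958 to 1.023 for 18 libraries and 1.035 to 1.291 for the remaining 6. Those 6 were L2d13 set 2 replicate 3 (1.0881), WT set 2 replicate 6 (1.2911) and WT set 4 replicates 9 to 12 (1.1012, 1.0496, 1.0462 and 1.0353). The split is a chosen cut between 1.023 and 1.035, where the values leave no wide gap. WT set 4 replicates 10 to 12 therefore lie close to the 18. L2d13 set 2 replicate 3 also had the lowest summed FPKM of 6 hepatocyte markers, 28805.94 against 42185.57 to 58041.61 in the other libraries, and the highest summed FPKM of every other cell type examined. As a check of the genotype labels, Gm21451, an annotated copy of Loxl2, had an FPKM of 40.63 to 266.18 in L2d13 libraries and 0.03 to 1.27 in WT libraries. Loxl2 itself had 1.501 ± 0.384 FPKM (SD, n = 12) in L2d13 and 0.68 ± 0.254 FPKM (SD, n = 12) in WT. All 24 libraries held Y-linked transcripts (Kdm5d, Uty, Ddx3y and Eif2s3y).

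In L2d13 livers Bcl6 and Ghr fell, and none of the other 6 tested genes passed the threshold. Bcl6 was lower by 1.59 ± 0.32 (SE) on the log2 scale, or 0.333-fold, and Ghr by 0.39 ± 0.11 (SE), or 0.762-fold, over both sets. A gene was tested if it reached an FPKM of 1 in at least 6 libraries, which 10532 genes did, and called at an adjusted p under 0.05 in limma on log2(FPKM + 1). Of all tested genes 30.8% were called in this comparison, 25.9% as higher and 4.86% as lower, so that the genes called here belong to the less common direction. Cux2 did not pass the filter and was tested by permutation. The median of all tested genes was 0.12 higher in L2d13 on the log2 scale, and relative to that median Bcl6 was at -1.70 and Ghr at -0.51. Scaling each library by the median of its gene ratios brought that median to 0 and turned the split of all calls, 2730 higher and 512 lower, into 1215 higher and 1164 lower. Quantile normalization gave 1310 higher and 1079 lower. Bcl6 and Ghr fell under both scalings.

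**Figure D1:**
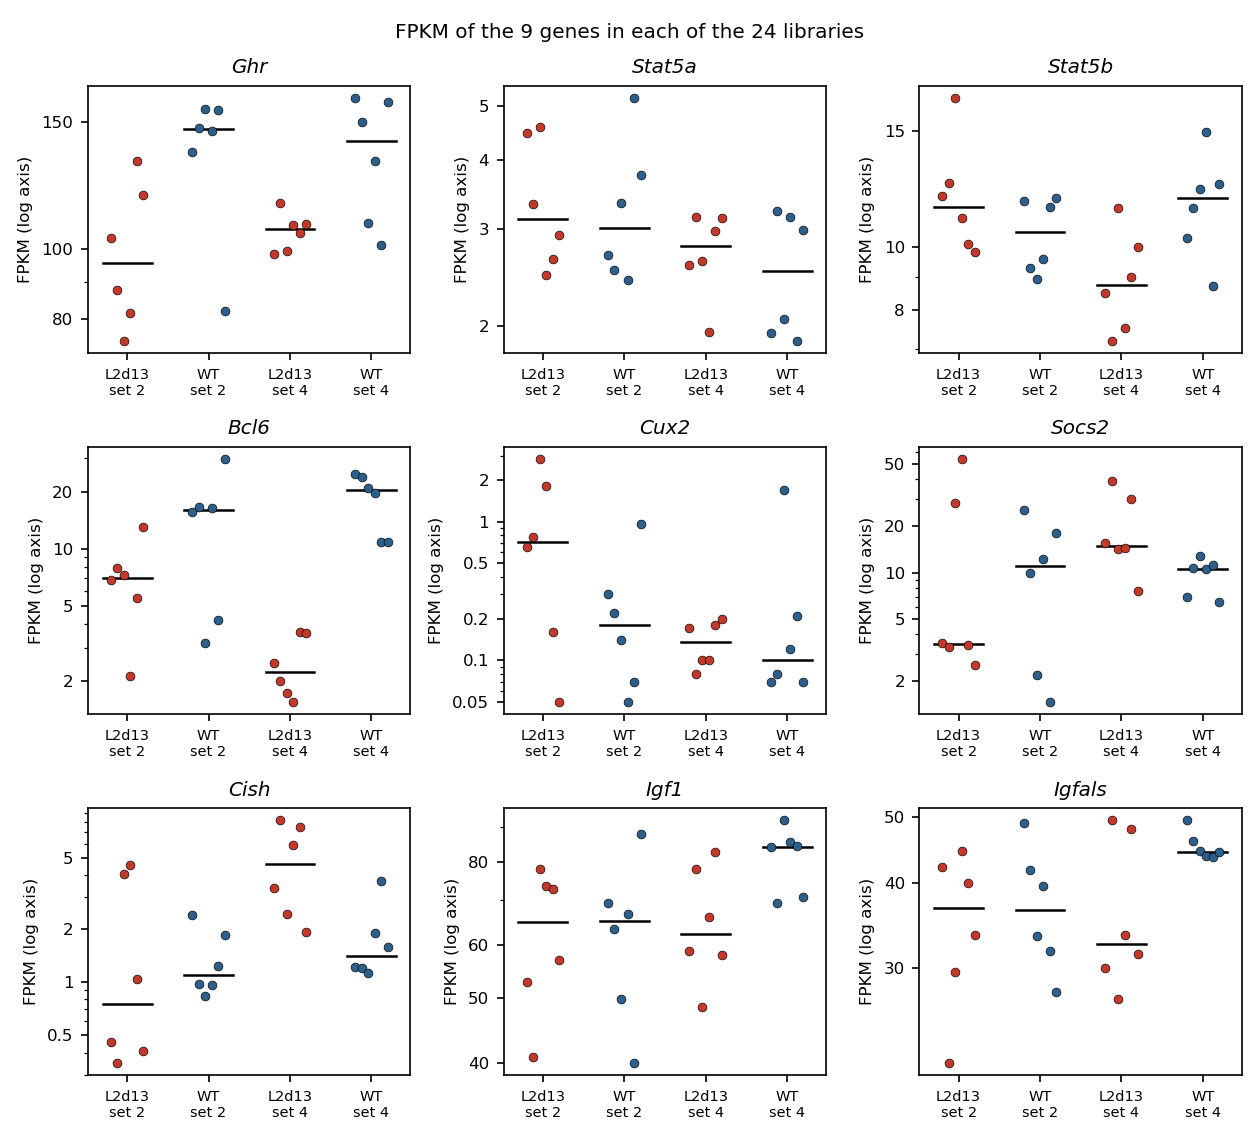
FPKM (log axis) of each of the 9 genes in the 24 libraries, with a point for each library and a line at the median of the group of 6. Bcl6 is lowest in L2d13 set 4, between 1.56 and 3.64 FPKM, and Socs2 spreads from 2.54 to 53.96 FPKM within L2d13 set 2.

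Ghr, the receptor and the most abundant of the 9 transcripts, lay on chromosome 15 (GRCm38, 3317760 to 3583492, minus strand). In set 2 its FPKM ran from 74.73 to 132.21 (median 95.7) in L2d13 and from 82.25 to 156.3 (median 146.5) in WT. Set 4 values ran from 98.46 to 115.94 (median 106.7) in L2d13 and from 101.5 to 161.61 (median 141.2) in WT. All 12 L2d13 libraries lay below the WT mean of their set, but the genotypes overlapped in both sets because a few WT libraries were low. Those were WT set 2 replicate 6 at 82.25 and WT set 4 replicates 9 and 11 at 108.72 and 101.5, all of them among the 6 libraries with a higher FPKM per fragment. Over both sets Ghr averaged 102.9 ± 16.1 FPKM (SD, n = 12) in L2d13 and 136.4 ± 25.7 FPKM (SD, n = 12) in WT, with an adjusted p of 0.0093 in limma. Among the 18 libraries of common FPKM per fragment the log2 difference was -0.53, with an adjusted p of 0.000347, and the other 6 gave no test because only 1 of them was L2d13, at 74.73 FPKM against 82.25 to 159.61 FPKM in the 5 WT libraries. Within single sets the difference was -0.45 (adjusted p = 0.054) in set 2 and -0.33 (adjusted p = 0.16) in set 4. In set 2 it passed the threshold under 8 of 32 other settings, among them both scalings, the 18 libraries alone (-0.63, adjusted p = 0.0038) and the fit without WT set 2 replicate 6.

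Stat5a and Stat5b, the transcription factors that the receptor activates, lie beside each other on chromosome 11, Stat5b at 100780731 to 100850724 on the minus strand and Stat5a at 100859351 to 100885169 on the plus strand (GRCm38). Their longest transcripts share an identical run of 324 bases, and 7.0% of the 100-base windows of Stat5a occur in Stat5b, so that some fragments could have been divided between them by the authors' estimation. Stat5b was the more abundant, with 10.5 ± 2.6 FPKM (SD, n = 12) in L2d13 and 11.1 ± 1.8 FPKM (SD, n = 12) in WT. Stat5a had 3.07 ± 0.776 FPKM (SD, n = 12) in L2d13 and 2.93 ± 0.92 FPKM (SD, n = 12) in WT. Over both sets neither differed past the threshold: the log2 difference was -0.09 for Stat5b (adjusted p = 0.55) and 0.06 for Stat5a (adjusted p = 0.70). The sign of Stat5a turned with the scaling, to -0.05 with median-of-ratios scaling and -0.07 with quantile normalization. In set 4 Stat5b ran from 7.19 to 11.45 FPKM (median 8.74) in L2d13 and from 8.7 to 14.93 FPKM (median 11.8) in WT. That log2 difference of -0.35 had an adjusted p of 0.081, and it passed the threshold under both scalings and without L2d13 set 2 replicate 3. In set 2 Stat5b ran from 9.81 to 16.81 FPKM (median 11.5) in L2d13, with the highest value in replicate 3, and from 8.94 to 11.87 FPKM (median 10.5) in WT.

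Bcl6, the repressor, on chromosome 16 (GRCm38, 23965052 to 23988852, minus strand), showed the largest difference of the 9 genes and the clearest separation of genotypes. Its set 4 levels ran from 1.56 to 3.64 FPKM (median 2.25) in L2d13 and from 10.85 to 24.7 FPKM (median 20.3) in WT. The groups did not overlap there; of all tested genes 1.7% were lower in L2d13 set 4 without overlap and 4.86% higher. The log2 difference in set 4 was -2.45 ± 0.39 (SE), 0.183-fold, with an adjusted p of 0.00039. It was the only one of the 8 tested genes called in set 4, where 13.3% of all tested genes were called, 10.3% as higher and 2.97% as lower. Every other setting tried, 32 in all, kept Bcl6 past the threshold in set 4, with log2 differences between -2.90 and -2.32.

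In set 2 the Bcl6 levels of the genotypes overlapped. They ran from 2.14 to 13.01 FPKM (median 7.03) in L2d13 and from 3.17 to 29.68 FPKM (median 16.03) in WT. Within WT set 2, replicates 3 and 5 stood at 3.17 and 4.2 FPKM and the other 4 libraries at 15.56 to 29.68 FPKM. The log2 difference in set 2 was -0.73 ± 0.39 (SE), with an adjusted p of 0.22. Of all tested genes, 0.56% were lower and 5.44% higher in L2d13 set 2 without overlap. None of the 8 tested genes was called in set 2, against 15.1% of all tested genes, 13% as higher and 2.13% as lower. The genotype effect in set 4 minus that in set 2 was -1.72 for Bcl6, with an adjusted p of 0.35, so that a larger fall in set 4 was not shown. None of the 8 genes was called for that interaction, for which 0.152% of all tested genes were, 0.0285% as higher and 0.123% as lower.

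Over both sets Bcl6 averaged 4.81 ± 3.45 FPKM (SD, n = 12) in L2d13 and 16.4 ± 8.09 FPKM (SD, n = 12) in WT, and all 12 L2d13 libraries lay below the WT mean FPKM of their set, 11 of 12 below the WT mean of log2(FPKM + 1) (adjusted p = 0.00072). Among the 18 libraries of common FPKM per fragment the log2 difference was -1.39, with an adjusted p of 0.021, the highest of any setting. Without L2d13 set 2 replicate 3 it was -1.64.

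The promoters of Bcl6 are shown because they hold the letters that STAT5 and BCL6 recognise. Windows of 300 bases, 250 before and 50 after each annotated start, came from RefSeq (GRCm38.p6) for 8 of the 9 genes (all but Socs2), 15 windows in all. They were searched for TTCNNNGAA, the STAT5-type motif, which reads the same on both strands and overlaps the motif of BCL6. The motif was found in 5 of the 15 windows, those of Bcl6, Cish and Igfals, and in 8.3% of all 32851 windows. The second Bcl6 window, for a start inside the gene, held 3 copies, as did 0.033% of all windows (11 windows), and the first held 1. Positions below count the annotated start as 0, and the capitals mark the motif. The stretches run from -178 to -70 (chr16:23981353-23981461) and from -128 to -100 (chr16:23988952-23988980), both on the minus strand. Neither overlaps an annotated exon of Bcl6, and exons of other genes were not examined for these stretches.
Bcl6 second start: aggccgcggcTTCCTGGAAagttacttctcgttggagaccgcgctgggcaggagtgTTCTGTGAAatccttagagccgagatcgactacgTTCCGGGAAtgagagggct
Bcl6 first start: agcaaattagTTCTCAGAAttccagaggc
These are matches of letters, and the data hold no measure of binding.

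Cux2, the repressor that is higher in female mouse livers, on chromosome 5 (GRCm38, 121856366 to 122050102, minus strand), was close to 0 in most libraries. It ran from 0.05 to 2.83 FPKM (median 0.715) in L2d13 set 2 and from 0.05 to 0.97 FPKM (median 0.18) in WT set 2. In set 4 the range was 0.08 to 0.2 FPKM (median 0.135) in L2d13 and from 0.07 to 1.7 FPKM (median 0.1) in WT. Its highest values came from a few libraries: L2d13 set 2 replicates 3 and 4 at 2.83 and 1.81, WT set 4 replicate 9 at 1.7 and WT set 2 replicate 6 at 0.97, all but replicate 4 with a higher FPKM per fragment. The two-sided permutation test within sets found a log2 difference of 0.18 with p = 0.39. The exact permutation test gave 0.54 with p = 0.14 in set 2 and -0.18 with p = 0.80 in set 4, where 924 arrangements allow no p below 0.00216. Among the 18 libraries alone the difference was 0.27 with p = 0.047 in the permutation test. Those 18 keep only replicates 7 and 8 of WT set 4 and, of the highest libraries named, only L2d13 set 2 replicate 4.

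Socs2, a feedback inhibitor and target of STAT5, on chromosome 10 (GRCm38, 95385362 to 95417180, minus strand), varied more between libraries of one group than nearly any other gene. Its within-group SD was 1.19 on the log2 scale, above that of 99.8% of tested genes, whose median was 0.259. In set 2 it ran from 2.54 to 53.96 FPKM (median 3.46) in L2d13 and from 1.47 to 25.5 FPKM (median 11.1) in WT. In L2d13 set 2 replicates 3 and 4 stood at 28.13 and 53.96 FPKM and the other 4 between 2.54 and 3.51 FPKM. In set 4 its levels ran from 7.65 to 39.06 FPKM (median 14.9) in L2d13 and from 6.52 to 12.77 FPKM (median 10.6) in WT. The log2 difference over both sets was 0.39 ± 0.44 (SE), with an adjusted p of 0.54, which came to -0.04 (adjusted p = 0.97) for set 2 and 0.82 (adjusted p = 0.40) for set 4.

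Cish, the other feedback inhibitor, lies on chromosome 9 (GRCm38, 107296026 to 107302784, plus strand). On the opposite strand an annotated antisense gene overlaps 7.5% of its exon bases and a transcribed processed pseudogene 4.1%, and the counting is not stated to use strand. In set 4 it ran from 1.91 to 8.17 FPKM (median 4.63) in L2d13 and from 1.13 to 3.73 FPKM (median 1.4) in WT. All 6 L2d13 libraries of set 4 lay above the WT mean, with WT replicate 11 at 3.73 inside the L2d13 range. The log2 difference was 0.999 ± 0.346 (SE) in set 4, just outside the threshold (adjusted p = 0.056), and it passed under 5 of 32 other settings. In set 2 it ran from 0.35 to 4.55 FPKM (median 0.75) in L2d13 and from 0.83 to 2.4 FPKM (median 1.1) in WT, with the same replicates 3 and 4 on top in L2d13 as for Socs2. The log2 difference was 0.01 in set 2 (adjusted p = 0.99) and 0.50 ± 0.26 (SE) over both sets (adjusted p = 0.14).

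Among L2d13 libraries, 1 of the 8 genes was called between the sets, Cish. It averaged 4.88 ± 2.67 FPKM (SD, n = 6) in L2d13 set 4 and 1.81 ± 1.95 FPKM (SD, n = 6) in L2d13 set 2, a log2 difference of 1.2 ± 0.35 (SE) with an adjusted p of 0.041. In that comparison 6.06% of all tested genes were called, 0.551% as higher in set 4 and 5.51% as lower. The call was lost in 9 of 31 other settings, with adjusted p-values up to 0.099: with no filter, and without any single one of L2d13 set 2 replicates 1, 2, 5 or 6 or L2d13 set 4 replicates 7, 8, 10 or 11. The interaction of set and genotype for Cish, 0.99 on the log2 scale, was not called (adjusted p = 0.71). Bcl6 had 2.50 ± 0.92 FPKM (SD, n = 6) in L2d13 set 4 and 7.11 ± 3.54 FPKM (SD, n = 6) in L2d13 set 2, and the log2 difference of -1.12 was not called (adjusted p = 0.087). It was called without L2d13 set 2 replicate 4. Stat5b had 8.94 ± 1.59 FPKM (SD, n = 6) in L2d13 set 4 and 12.03 ± 2.56 FPKM (SD, n = 6) in L2d13 set 2, with an adjusted p of 0.084, and was called without L2d13 set 4 replicate 9. Among WT libraries no gene of the 8 was called between sets, against 0.19% of all tested genes, 0.0855% as higher and 0.104% as lower, and the lowest adjusted p was 0.58 (Igf1). Since the meaning of the sets is not given, the comparison is one of names.

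The start of Cish is shown because 2 copies of the motif sit on it. In its 1 RefSeq window the motif lies at positions 0 to 8 and 11 to 19, and 0.46% of all windows held at least 2 copies. The stretch is chr9:107296654-107296683 on the plus strand (GRCm38.p6) and lies within an annotated exon; capitals mark the motif.
Cish: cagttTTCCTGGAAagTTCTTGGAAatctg

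**Figure D2:**
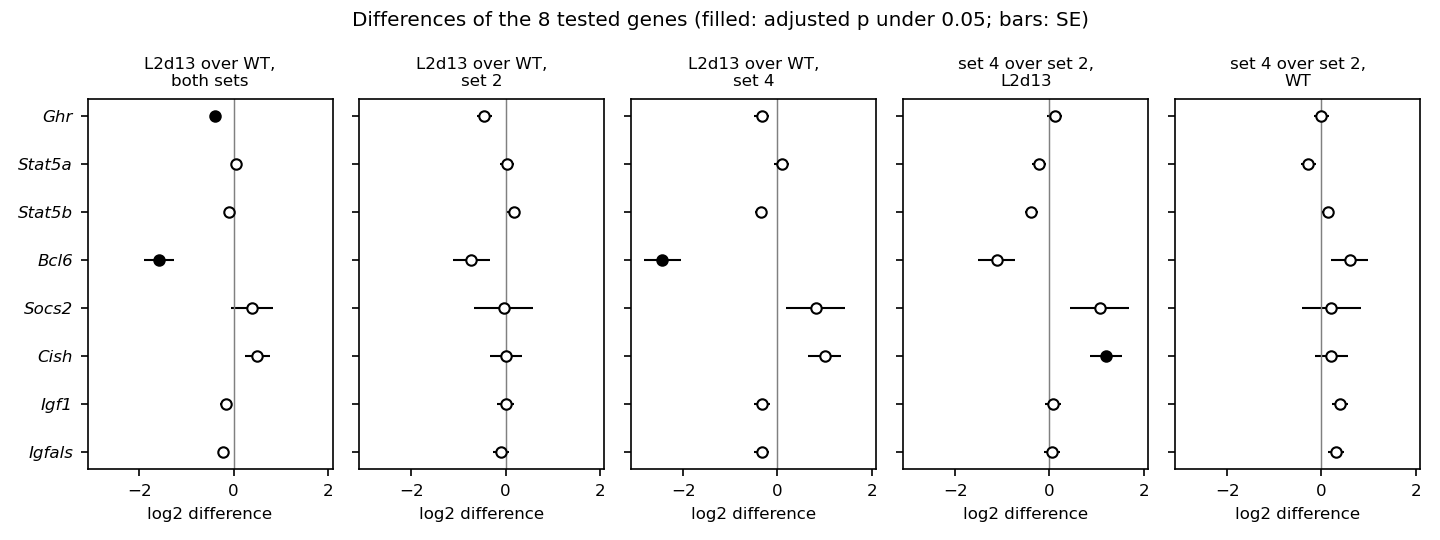
Log2 difference in log2(FPKM + 1) with its SE for the 8 tested genes in 5 comparisons, L2d13 over WT in both sets, in set 2 and in set 4, and set 4 over set 2 in L2d13 and in WT. Filled points, Bcl6 and Ghr over both sets, Bcl6 in set 4 and Cish between the L2d13 sets, have an adjusted p under 0.05.

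Igf1, the growth factor that the liver releases under growth hormone, on chromosome 10 (GRCm38, 87858265 to 87937042, plus strand), did not differ past the threshold. In set 2 it ran from 40.85 to 77.96 FPKM (median 64.9) in L2d13 and from 40.0 to 87.85 FPKM (median 65.1) in WT. In set 4 it ran from 48.53 to 82.79 FPKM (median 62.4) in L2d13 and from 69.31 to 92.29 FPKM (median 84.3) in WT. In set 4, 5 of 6 L2d13 libraries lay below the WT mean of 81.1 FPKM. The log2 difference was -0.16 ± 0.12 (SE) over both sets (adjusted p = 0.34), -0.0007 in set 2 and -0.32 in set 4 (adjusted p = 0.22).

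Igfals, the acid-labile subunit that keeps IGF1 in the circulation, on chromosome 17 (GRCm38, 24865997 to 24882010, plus strand), also stayed outside the threshold. In set 2 it ran from 21.75 to 44.65 FPKM (median 36.7) in L2d13 and from 27.64 to 49.04 FPKM (median 36.5) in WT. In set 4 it ran from 27.0 to 49.52 FPKM (median 32.5) in L2d13 and from 43.69 to 49.48 FPKM (median 44.5) in WT. WT set 4 was tight, with a coefficient of variation of 4.85%, while L2d13 set 4 split into 4 libraries at 27.0 to 33.59 FPKM and replicates 8 and 11 at 49.52 and 48.0 FPKM. The log2 difference over both sets was -0.21 ± 0.12 (SE) with an adjusted p of 0.17, which came to 0.045 with median-of-ratios scaling and to no other value under the threshold. The motif stood once in each of 2 of its 3 windows, at positions -236 to -228 and -58 to -50 of their starts. The stretches shown are chr17:24877598-24877626 and chr17:24878163-24878191 on the plus strand (GRCm38.p6), and capitals mark the motif. Neither stretch overlaps an annotated exon of Igfals, and exons of other genes were not examined for them.
Igfals first window: gatctataatTTCTCAGAAaagaggctga
Igfals second window: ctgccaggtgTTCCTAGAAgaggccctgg

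The 9 genes keep a wide order of levels on the FPKM scale, which is per length. Over the 24 libraries the mean FPKM was 119.6 for Ghr, 67.97 for Igf1, 38.61 for Igfals, 14.31 for Socs2, 10.78 for Stat5b, 10.60 for Bcl6, 2.999 for Stat5a, 2.46 for Cish and 0.463 for Cux2. Ghr exceeded Igf1 in 22 of 24 libraries, Igf1 exceeded Igfals in all 24 and Igfals exceeded Socs2 in 23. The next ranks are not set apart by the spread: Socs2 exceeded Stat5b in 13 of 24 libraries and Stat5b exceeded Bcl6 in 14. Bcl6 exceeded Stat5a in 17 of 24, Stat5a exceeded Cish in 18 and Cish exceeded Cux2 in 21. Bcl6 and Cish shared the wide spread of Socs2, with within-group SDs of 0.74 and 0.651 on the log2 scale, above those of 98.4% and 97.3% of tested genes. Ghr (0.28), Stat5a (0.272), Stat5b (0.228), Igf1 (0.31) and Igfals (0.30) had SDs of 0.228 to 0.31, near the median of 0.259.

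Across libraries, Socs2 moved with Cish and with Igf1. Deviations of log2(FPKM + 1) from the group mean were correlated over 24 libraries for 10 pairs, with permutation within groups and adjustment over the 10. For Socs2 and Cish Pearson's r was 0.78 (permutation p = 0.00012, adjusted 0.0012) and Spearman's rho 0.703 (permutation p = 0.00069). Without the 2 libraries farthest from the median of Socs2 the r was 0.783, in the 18 libraries alone 0.792, and within the groups 0.97 in L2d13 set 2, 0.646 in WT set 2, 0.882 in L2d13 set 4 and 0.204 in WT set 4. The same libraries, L2d13 set 2 replicates 3 and 4 and L2d13 set 4 replicates 8 and 11, were high for both genes. For Socs2 and Igf1 r was 0.736 (permutation p = 0.00055, adjusted 0.00275) and rho 0.781 (permutation p = 0.00011), r without the 2 farthest libraries was 0.703, and in the 18 libraries 0.689. It was positive in each group, from 0.46 in WT set 4 to 0.911 in WT set 2.

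**Figure D3:**
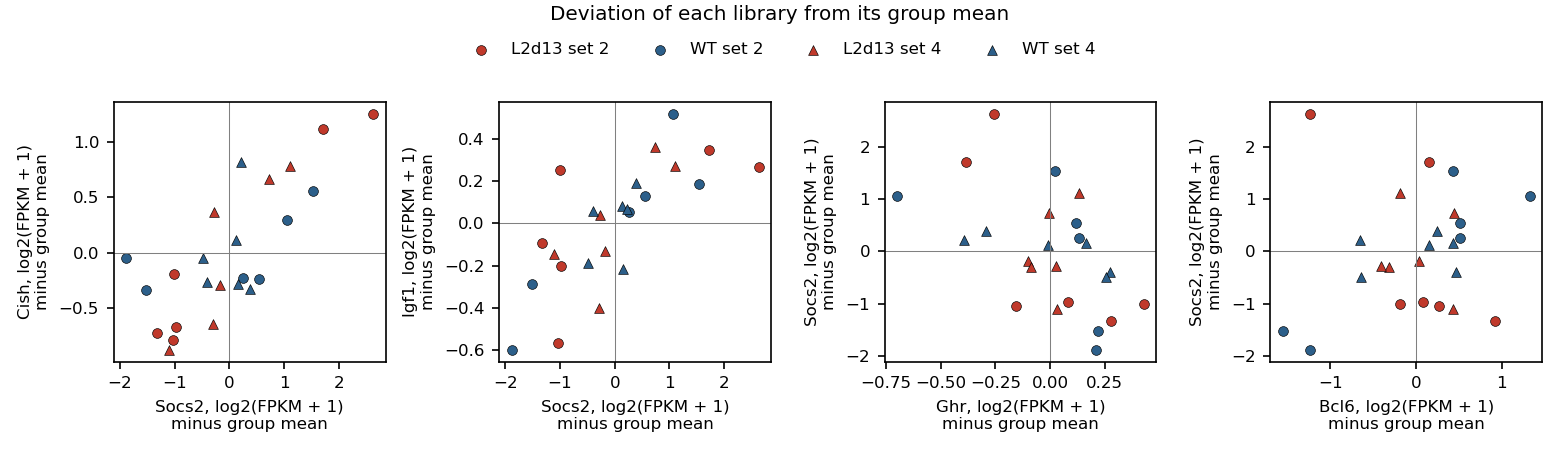
Deviation of each library from its group mean in log2(FPKM + 1), for Cish against Socs2, Igf1 against Socs2, Socs2 against Ghr and Socs2 against Bcl6, with 1 point for each of 24 libraries. Socs2 rises with Cish (r = 0.78) and Igf1 (r = 0.736) and falls with Ghr (r = -0.551), while for Bcl6 the L2d13 set 2 points fall (r = -0.722) and the WT set 2 points rise (r = 0.909).

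Of the other 8 pairs, Stat5a with Stat5b and Ghr with Socs2 passed the adjustment as well. For Stat5a and Stat5b r was 0.563 (permutation p = 0.00609, adjusted 0.0203) and rho 0.572 (permutation p = 0.00604). Without the 2 libraries farthest from the median of Stat5a r was 0.483, in the 18 libraries it was 0.381 (permutation p = 0.122), and the part of shared sequence in this correlation was not tested. For Ghr and Socs2 r was -0.551 (permutation p = 0.019, adjusted 0.0476), rho -0.565 (permutation p = 0.00784) and r without the 2 farthest libraries -0.574. Within groups it was -0.754 in L2d13 set 2, -0.547 in WT set 2 and -0.805 in WT set 4, but 0.408 in L2d13 set 4, and in the 18 libraries it was -0.532 (permutation p = 0.0547). Without L2d13 set 2 replicate 3 the adjusted p was 0.0582 for Stat5a with Stat5b and 0.0673 for Ghr with Socs2. Igf1 and Igfals had r = 0.493 (permutation p = 0.0407, adjusted 0.0813) and rho 0.428 (permutation p = 0.0721), and r was 0.573 in L2d13 set 2, 0.092 in WT set 2, 0.959 in L2d13 set 4 and -0.091 in WT set 4. Without the 2 farthest libraries it was 0.314. The value for that pair depended on which libraries were kept. Without WT set 2 replicate 6, which had the highest Igf1 of its group and the lowest Igfals, r was 0.721 (permutation, adjusted p = 0.00507). That library was chosen after seeing the data. In the 18 libraries r was 0.872.

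None of the 4 pairs with Bcl6 passed the adjustment. The r of Bcl6 was 0.368 with Igf1, -0.237 with Cish, 0.159 with Socs2 and 0.045 with Cux2, with adjusted p-values from 0.225 to 0.846 in the permutation test. With Socs2 it was 0.909 in WT set 2, where replicates 3 and 5 were low for both genes, and -0.722 in L2d13 set 2, where replicate 4 had the lowest Bcl6 and the highest Socs2. A group holds 6 libraries, and these values within groups are descriptions. Ghr with Igf1 had r = -0.373 (permutation p = 0.123), and 0.155 in the 18 libraries.

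By the same deviations, the 3 other tested genes with the highest r were listed for each tested member, with predicted genes and clone names left out. Cux2, which was not tested, has no such list. The lists are a description over 24 libraries that share their preparation. For Bcl6 they were Noct (r = 0.875), Angptl4 (0.851) and Tspan33 (0.818). Noct, a gene with a daily rhythm in mouse liver, had 1.24 to 5.42 FPKM in L2d13 and 4.46 to 37.26 FPKM in WT, and its lowest WT libraries, set 2 replicates 3 and 5, were those lowest for Bcl6. For Ghr they were Cyp4f14 (r = 0.918), C4bp (0.908) and Iyd (0.885). For Socs2 they were Alkbh1 (r = 0.868), Arid5b (0.83) and Max (0.824), and for Cish Rgs3 (0.821), Alkbh1 (0.797) and Socs2 (0.78). Igf1 lay nearest to Nob1 (r = 0.864), Luc7l (0.863) and Khdc4 (0.857), all above its r of 0.736 with Socs2. Alkbh1, near Socs2 and Cish, was also at 0.842 with Igf1, so closeness to these genes is not particular to the members. Igfals lay nearest to Keg1 (r = 0.799), Mrps2 (0.742) and Timm8a1 (0.715). Stat5a lay nearest to Tnfaip2 (r = 0.834), Acaca (0.817) and Eif2ak4 (0.807), and Stat5b to Hdac5 (0.853), Tmem94 (0.832) and Tnrc18 (0.825).

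For each gene list below, the counts over both sets stand against 25.9% of all tested genes called as higher, 4.86% called as lower and a median log2 difference of 0.12. The lists were chosen with earlier results of these data known, so their counts are descriptions and no independent test. With median-of-ratios scaling 1215 of all 10532 tested genes were called as higher and 1164 as lower, and with quantile normalization 1310 and 1079. The receptor and signalling list of 11 genes, all tested, had 3 genes higher and 1 lower in L2d13 over both sets, with a median log2 difference of 0.06, so that its share of higher genes was near that of all tested genes. Stat3, which interleukin 6 activates, rose by 0.34 ± 0.10 (SE, adjusted p = 0.015), the adaptor Shc1 by 0.21 ± 0.06 (SE, adjusted p = 0.0065), and Ghr was the one that fell. With median-of-ratios or quantile scaling the list had 1 higher and 2 lower, and its median was -0.05 or -0.07. Of 11 tested inhibitors, out of 12, the phosphatase gene Ptpn6 alone was called, with 10.6 ± 2.04 FPKM in L2d13 and 7.93 ± 1.17 FPKM in WT (SD, n = 12 each) and a log2 difference of 0.37 (adjusted p = 0.0008). Ptpn11 (0.32, adjusted p = 0.083) and Socs5 (0.16, adjusted p = 0.11) were not called. Of 9 tested genes of IGF ligands, binding proteins and receptors, out of 15, Igfbp2 and Igfbp3, whose products carry IGF1 in blood, rose by 0.56 ± 0.15 (SE, adjusted p = 0.0077) and 0.53 ± 0.17 (SE, adjusted p = 0.022). The Igfbp3 difference was 0.97 in set 2 (adjusted p = 0.0046 in limma) but 0.10 in set 4 (adjusted p = 0.80). For Igfbp2 it was 0.65 in set 2 (adjusted p = 0.044) and 0.46 in set 4 (adjusted p = 0.16). Insr, the insulin receptor, was at 0.16 (adjusted p = 0.078).

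Of 16 tested regulators of liver transcription and of sex bias, out of 18, 5 rose and 3 fell, with a median of 0.21, against 25.9% and 4.86% of all tested genes. Bcl6 itself, described above, is counted among the 3 that fell. Tox, a nuclear factor that is higher in female mouse livers, rose to 3.13 ± 1.15 FPKM in L2d13, against 1.39 ± 0.592 FPKM in WT (SD, n = 12 each), a log2 difference of 0.78 (adjusted p = 2.8e-05). Cebpb, an activator in metabolism and the acute phase, fell to 37.3 ± 11.8 FPKM in L2d13, against 86.4 ± 34.8 FPKM in WT (SD, n = 12 each), a log2 difference of -1.13 (adjusted p = 0.00025). The counts became 3 higher and 4 lower with median-of-ratios scaling and 3 of each with quantile normalization.

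Of 20 tested male-biased liver genes, out of 21, 10 fell and none rose in L2d13, where the median was -0.51 and the share of all tested genes that fell was 4.86%. Within single sets 7 fell in set 2 and 3 in set 4, where 2.13% and 2.97% of all tested genes fell, and none rose. Cyp4a12a was called as lower (-0.49, adjusted p = 0.032 in limma), while Cyp4a12b was at 0.46 and not called (adjusted p = 0.082). Fragments that similar genes of one family could share were not examined. Mup21, a major urinary protein gene, had 131.8 ± 53.6 FPKM in L2d13 and 314.3 ± 131.4 FPKM in WT (SD, n = 12 each), a log2 difference of -1.24 (adjusted p = 9.1e-05). Mup3 (-0.53), the detoxifying enzyme gene Gstp1 (-0.72) and the fatty acid elongase gene Elovl3 (-1.12) fell too, with adjusted p-values of 0.00085 to 0.0029. Mup21 and Mup3 were called as lower in each set. Gstp1 was at -0.95 in set 2 (adjusted p = 0.0055 in limma) but -0.49 in set 4 (adjusted p = 0.13). For Elovl3 it was -1.46 in set 2 (adjusted p = 0.011 in limma) but -0.77 in set 4 (adjusted p = 0.17). Both scalings left this direction, with 10 and 9 fallen and none risen, where 1164 and 1079 of all 10532 tested genes fell. With the replicate block 8 fell and 1 rose. Between the L2d13 sets, 6 of the 20 were higher in set 4 and none lower, with a median of 0.74, against 0.551% higher, 5.51% lower and a median of -0.15 over all tested genes. Of 11 tested female-biased genes, out of 21, 5 rose and none fell, against 25.9% and 4.86% of all tested genes, and the list median of 0.07 lay below the 0.12 of all tested genes. Cyp17a1, a steroid hydroxylase gene, had 33.4 ± 19.1 FPKM in L2d13 and 7.17 ± 5.03 FPKM in WT (SD, n = 12 each), a log2 difference of 2.07 (adjusted p = 3.5e-06). Cyp4a14 (0.77) and Rtn4 (0.49) rose with adjusted p-values of 0.0031 and 0.02, as did Tox, which is also among the regulators. Only 3 female-biased genes rose under either scaling.

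Of 18 genes of the response to interleukin 6 and STAT3, 2 rose and 2 fell, with a median of -0.03. The serum amyloid genes Saa4 and Saa3 fell by 0.84 and 0.87 on the log2 scale (adjusted p = 0.00079 and 0.0041), and the receptor subunit Il6st rose by 0.59 (adjusted p = 0.0068), as did Stat3. Of 8 tested genes of lipid uptake and storage, out of 10, 2 rose and 1 fell, with a median of 0.35; the share that rose was near the 25.9% of all tested genes. Cidec, a protein of lipid droplets, had 41.3 ± 21.5 FPKM in L2d13 and 6.89 ± 3.04 FPKM in WT (SD, n = 12 each), a log2 difference of 2.33 (adjusted p = 1.1e-06). Fabp4 rose by 0.57 (adjusted p = 0.031), Plin4, another lipid droplet protein, fell by 1.73 (adjusted p = 0.00051), and Lpl, at 0.36, was not called (adjusted p = 0.088). The Fabp4 difference was 0.996 in set 2 (adjusted p = 0.012 in limma) but 0.15 in set 4 (adjusted p = 0.73).

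**Figure D4:**
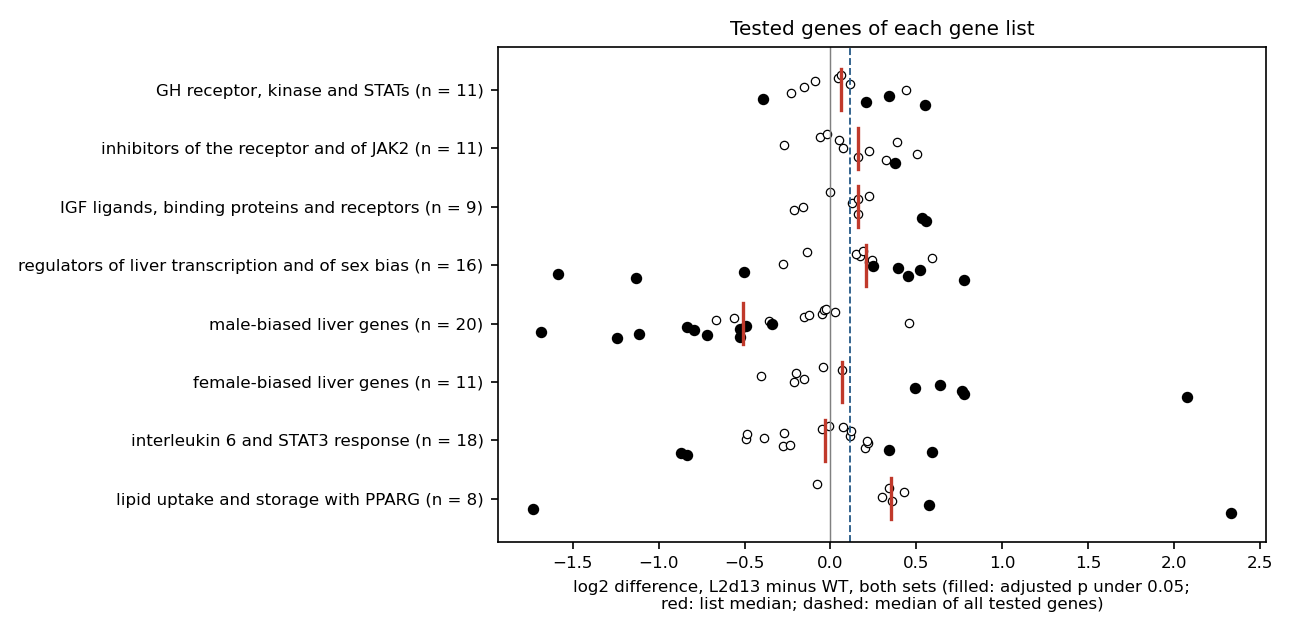
Log2 difference between L2d13 and WT over both sets for each tested gene of 8 lists, with filled points for an adjusted p under 0.05, red lines for the list median and a dashed line for the median of all tested genes (0.12). Filled points of the male-biased list lie left of 0 (10 of 20), and those of the female-biased list lie right of 0 (5 of 11). Of all tested genes 4.86% were called as lower and 25.9% as higher. The median of the female-biased list, 0.07, lies below the dashed line.

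Among markers of other liver cells, calls between the genotypes were most frequent for sinusoidal endothelium and absent for several cell types. Of 7 sinusoidal endothelial markers 5 rose and none fell in L2d13, where 25.9% of all tested genes rose, and their summed FPKM ran from 106.1 to 212.3 in L2d13 set 2, 39.88 to 117.6 in WT set 2, 41.31 to 95.97 in L2d13 set 4 and 27.26 to 99.45 in WT set 4. Of 7 Kupffer cell markers 3 rose and none fell, with sums of 77.75 to 163.7 in L2d13 set 2, 54.43 to 130.3 in WT set 2, 36.0 to 139.8 in L2d13 set 4 and 19.47 to 87.14 in WT set 4. Of 7 stellate cell markers 1 rose, of 6 hepatocyte markers 1 rose and 1 fell, and of the tested markers of cholangiocytes, B cells and neutrophils none was called, while no T cell marker passed the filter. Hepatocyte marker sums ran from 28810 to 52870 in L2d13 set 2, 48390 to 58040 in WT set 2, 42190 to 54360 in L2d13 set 4 and 51130 to 55680 in WT set 4. No marker was at 0 in all 24 libraries. The part of these differences in the results above was not tested, and in bulk RNA fewer cells of a type and less RNA per cell cannot be told apart.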

How the data were processed

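The authors' deposited table held FPKM values with 2 decimals for 18171 genes in 24 liver libraries; the tools named, without versions, are RSEM, HISAT and Bowtie2, and the build is GRCm38.p5, per the submitters' processing notes. Per the labels' protocols, RNA was extracted with TRIzol. No further scaling of the FPKM values is stated in the deposited files, and columns of no sample numbered 0. Gene identifiers were matched to symbols of the RefSeq table of GRCm38.p6 (18040 matched); coordinates and transcripts came from GENCODE M21 (GRCm38).

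Groups were taken from the labels: genotype, and the digit 2 or 4 in the sample descriptions. The members, lists and tests were chosen with earlier results of these data known. The 10532 genes that reached an FPKM of 1 in 6 or more libraries were fitted on the log2(FPKM + 1) scale, with variances that follow the mean, in R 4.3.3 by limma 3.58.1 and statmod 1.5.0. Genotype over both sets came from additive terms for set and genotype, and the other contrasts from 1 mean per group. All 24 libraries shared 1 estimate of the spread. P-values were two-sided and adjusted by Benjamini and Hochberg within each contrast, with a threshold of 0.05. Folds are 2 to the power of a log2 difference and include the pseudocount of 1, so they understate changes of low genes. The fit was tested on simulated data. Cux2 and the 10 correlations were tested by permutation with 100000 resamples, exact within a set. The FPKM of 1 fragment came from 3622 values of 293 low genes, of which 86.5% were whole numbers of steps to within 0.2; the steps were taken from these values themselves, so this share is no independent check. Correlations between libraries lay between 0.953 and 0.995, and no pair held identical values.

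Named genes are the 9 members, the 4 tested genes of smallest p of each list (some of these are not reported here, though counts include them), the 3 nearest genes of each tested member, and Loxl2 with Gm21451; Noct was described further after its values were seen. Alternatives were a pseudocount of 0.1, no filter, median-of-ratios and quantile scaling, the 18 libraries of common FPKM per fragment alone, library class as a term, robust moderation, the replicate block, and each library left out. The rest was done in Python 3.11.15 (scipy 1.17.1, pandas 2.3.3, numpy 2.4.6; figures in matplotlib 3.10.9).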

Additional observations from a re-analysis of the deposited data

Results flagged for a closer look

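Within each group of 6 libraries the gap between an extreme value and its neighbour was set against the range of the group, both on the log2(FPKM + 1) scale, with Dixon's critical value at 95%, for 36 combinations of gene and group. Chance alone puts about 1 in 20 groups past that value. Ghr in WT set 2 stood out by its lowest library, replicate 6, at 82.25 FPKM against 136.16 to 156.3 FPKM in the other 5, a gap of 0.785 of the range. Cux2 in WT set 2 stood out by its highest library, again replicate 6, at 0.97 FPKM against 0.05 to 0.3 FPKM, a gap of 0.661 of the range. Cux2 in WT set 4 stood out by its highest library, replicate 9, at 1.7 FPKM against 0.07 to 0.21 FPKM, a gap of 0.867 of the range. Both libraries belong to the 6 with a higher FPKM per fragment, at 1.29 and 1.10 of the common value; whether that bears on these values was not tested. Without WT set 2 replicate 6 the difference of Ghr in set 2 was called, and without WT set 4 replicate 9 the difference of Cux2 over both sets was 0.29 on the log2 scale (permutation p = 0.11).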

How the results depend on the processing

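Bcl6 and Ghr fell past the threshold over both sets, and Bcl6 in set 4, under all 32 other settings. Over both sets the log2 difference ran from -1.81 to -1.38 for Bcl6 (adjusted p 7.1e-05 to 0.021) and from -0.54 to -0.35 for Ghr (0.00016 to 0.029). Leaving out each library in turn gave 0 to 1 genes called in set 2, 1 to 3 in set 4, 0 to 2 between the L2d13 sets, and 2 over both sets. In set 2, 1 gene (Ghr) was called with median-of-ratios scaling, quantile normalization, the 18 libraries alone or library class as a term. In set 4, 2 were called with either scaling (Bcl6, Stat5b) or the 18 libraries (Bcl6, Ghr) and 3 with the class term (Bcl6, Cish, Ghr); Cish was also called there without L2d13 set 2 replicate 3 or 4, L2d13 set 4 replicate 12 or WT set 4 replicate 11. Of WT set 4 the 18 libraries hold only replicates 7 and 8. Between the L2d13 sets 0 were called with no filter, where more genes are tested. The cause of the other changes was not tested.

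The signs that turned belong to differences past the threshold in neither fit. They were, over both sets, Stat5b with the class term (0.030) and Stat5a with median-of-ratios (-0.047) or quantile scaling (-0.067). In set 2 they were Igf1 in the 18 libraries (0.033), Stat5a with the scalings (-0.11, -0.13) and in the 18 libraries (-0.0044), and Cish with a pseudocount of 0.1 (-0.21), the scalings (-0.090, -0.13) and the 18 libraries (-0.15). In set 4 it was Stat5a with quantile scaling (-0.0071), and between the genotype effects Ghr in the 18 libraries (-0.037) and with the class term (-0.22). Between the WT sets they were Ghr with the scalings (0.095, 0.026), the 18 libraries (0.072) and the class term (0.25), Socs2 with the class term (-0.29), and Cish in the 18 libraries (-0.0047) and with the class term (-0.12). With single libraries left out, ranges across 0 were -0.12 to 0.11 for Igf1, -0.17 to 0.037 for Igfals, -0.038 to 0.14 for Stat5a, -0.56 to 0.27 for Socs2 and -0.24 to 0.17 for Cish in set 2; -0.057 to 0.13 for the difference between effects of Stat5a; -0.039 to 0.15 for Igf1 and -0.074 to 0.13 for Igfals between the L2d13 sets; and -0.15 to 0.071 for Ghr and -0.17 to 0.52 for Socs2 between the WT sets.

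Counts of called genes in lists moved to 2 for the receptor list (from 4) and 2 for the interleukin 6 list (from 4) in the 18 libraries, to 1 for the IGF list (from 2) with quantile scaling, the 18 libraries or the block, to 3 for the female-biased list (from 5) with either scaling, and to 5 for the lipid list (from 3) with the class term. With 1 library left out the inhibitor list had 1 to 3, the IGF list 2 to 3 and the lipid list 2 to 4. The log2 difference of Cux2 was 0.27 (permutation p = 0.047) in the 18 libraries and ran from 0.08 to 0.29 with 1 library left out. Of the 10 correlations 4 passed; 2 did with median-of-ratios scaling, and 2 to 5 without L2d13 set 2 replicate 3 or WT set 2 replicate 6, both chosen after seeing the data. Bcl6 with Cux2 had r = -0.353 in the 18 libraries, -0.014 with median-of-ratios scaling, and -0.117 to 0.02 with either of those libraries left out, and Ghr with Igf1 had 0.155 in the 18.

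The replicate numbers of the titles are shared by the genotypes but did not pair the libraries: deviations of the same number correlated at -0.604 to 0.26, above 0.1 for 4 of 12 pairs, and 1 of 12 libraries correlated best with its own number. With the replicate block Bcl6 was at -1.59 (adjusted p = 0.00419) and Ghr at -0.39 (adjusted p = 0.029), and 2133 genes were called as higher and 393 as lower. Depth is unknown, and low genes such as Cux2 and Cish rest on few fragments.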

Other observations

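Onecut1, a liver transcription factor that growth hormone activates in rat liver and that belongs to the regulator list, was looked at after its values were seen. In L2d13 set 2 it stood at 10.23 FPKM in replicate 4 and between 0.75 and 1.21 FPKM in the other 5 libraries, and that library also held the highest Socs2 (53.96 FPKM) and Cish (4.55 FPKM) of the group. In L2d13 set 4 it stood at 18.66 FPKM in replicate 8, the library with the highest Socs2 (39.06 FPKM) and Cish (8.17 FPKM) of that group, and between 1.59 and 6.81 FPKM in the other 5. In WT it ran from 0.89 to 2.54 FPKM in set 2 and from 0.6 to 3.08 FPKM in set 4. L2d13 set 2 replicate 3, high for Socs2 (28.13 FPKM) and Cish (4.06 FPKM), had 0.99 FPKM of Onecut1.

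Selenbp2, a male-biased gene, spread widely within groups. It ran from 5.7 to 146.86 FPKM in L2d13 set 2 and from 2.96 to 241.16 FPKM in WT set 2, and from 75.16 to 250.94 FPKM in L2d13 set 4 and from 164.24 to 600.53 FPKM in WT set 4. The female-biased cytochrome gene Cyp2b9 ran from 0.15 to 26.24 FPKM in L2d13 set 2 and from 0.09 to 6.62 FPKM in WT set 2, and it stayed at or below 0.71 FPKM in L2d13 set 4 and at or below 0.49 FPKM in WT set 4. Both genes were picked after their values were seen, and neither was called between genotypes over both sets, with log2 differences of -0.67 for Selenbp2 (adjusted p = 0.37) and 0.07 for Cyp2b9 (adjusted p = 0.92) in limma.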
